A study of Mus musculus with 14 samples.

Results

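Islets of mice without the pattern receptors TLR2 and TLR4 (Tlr2/Tlr4 double knockout, DKO) were compared with islets of wild-type C57BL/6 mice (WT) after 7 months on a high-fat diet. The comparison used 8 of the 14 arrays of the study, 4 per genotype, chosen by their sample titles. DKO mice were on a C57BL/6 background. Both genotypes were bred in a specific pathogen-free facility and ate a diet with 60% fat from 6 weeks of age, so the diet was shared by controls and knockouts and no array came from mice on another diet. Each array carried the islet RNA of 1 mouse by the wording of the labels. The deletion was not limited to a cell type, and the sources do not say whether the mice were littermates. The other 6 arrays, 4 of WT and 2 of DKO, came from mice on the diet for 5 weeks. All values below are log2 signals, in which a difference of 1 is a 2-fold change, and the number of arrays limits their precision.

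TLR2 binds bacterial lipoproteins and TLR4 binds lipopolysaccharide, and both signal through the adaptor MyD88 to NF-kappaB. Pancreatic islets hold insulin-secreting beta cells beside alpha cells (glucagon), delta cells (somatostatin) and PP cells (pancreatic polypeptide), with vessels, stromal cells and macrophages among them. During long overfeeding beta cells secrete more insulin and their mass grows, and the series title places TLR2 and TLR4 in that expansion.

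The targeted genes were read first. Tlr2 was 6.43, 6.24, 6.26 and 6.53 in WT replicates 1 to 4 and 5.35, 5.29, 5.41 and 5.18 in the DKO replicates. All DKO arrays lay below all WT arrays. Tlr2 fell by 1.06 ± 0.10 (SE; limma adjusted p = 1.61e-05), and the 2-sided exact permutation p was 0.0286, the lowest that 4 against 4 arrays can give. Tlr4 was 2.95, 2.70, 3.44 and 2.90 in WT and 3.48, 3.60, 2.85 and 3.29 in DKO. The groups overlapped at this dim signal, and Tlr4 did not pass (0.31 ± 0.16, limma adjusted p = 0.331, exact permutation p = 0.286). The sources do not place the 2 probe sets against the deletions, so the overlap in Tlr4 says nothing about the deletion.

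Of 18820 genes tested, 460 rose in DKO islets and 427 fell (limma, Benjamini-Hochberg adjusted p under 0.05). These are 4.71% of the genes in either direction, 2.44% higher and 2.27% lower. Of the 887 genes, 147 changed at least 2-fold, 19 at least 4-fold and 429 by less than 1.5-fold. The 8 arrays did not overlap between genotypes for 770 of them. Over all genes tested that held for 10.6%, with DKO above WT for 5.35% and below it for 5.25%. How many rose against fell depended on the scaling: 381 rose and 527 fell with arrays centred on the median of the genes, and 674 rose and 294 fell with arrays centred on the median of all probe sets. None of the 887 changed sign under either scaling or any other setting tried. For 194 of them the lower group mean lay below every array's median signal, so the size of those changes is not exact.

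2 DKO arrays stood apart, replicates 2 and 4. Their description labels carry the number 7, as do those of WT replicates 2 and 4, and the other arrays of 7 months carry 5. What this number stands for is not explained. With it as a term in the model 834 genes passed. At 224 of the 887 genes (25.3%) DKO replicate 2 was nearer to the WT mean than to the mean of the other DKO arrays, against 2.0% to 6.8% for the other arrays. Without DKO replicate 2, 1681 genes passed, 872 higher and 809 lower. This array was singled out for lying near WT, so more calls without it follow in part from that choice. Counts of any gene list without DKO replicate 2 are read beside this rise over all genes. DKO replicate 4 had high lymphocyte gene signals: its mean over 12 T and NK cell genes was 1.22 above the mean of all 14 arrays, where the other 7 arrays lay at -0.23 to 0.05, and its mean over 10 B and plasma cell genes was 1.05, against at most 0.06. Cd3g, a T cell receptor subunit, was 5.19 in DKO replicate 4 and 1.94 to 2.26 in the other arrays. The mean of 22 acinar genes also differed between arrays, from -2.35 in WT replicate 4 to 0.73 in WT replicate 2, with DKO between 0.01 and 0.63. Leaving out WT replicate 1 or WT replicate 2 gave 528 genes past the threshold each, and leaving out DKO replicate 3 gave 531.

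**Figure D1:**
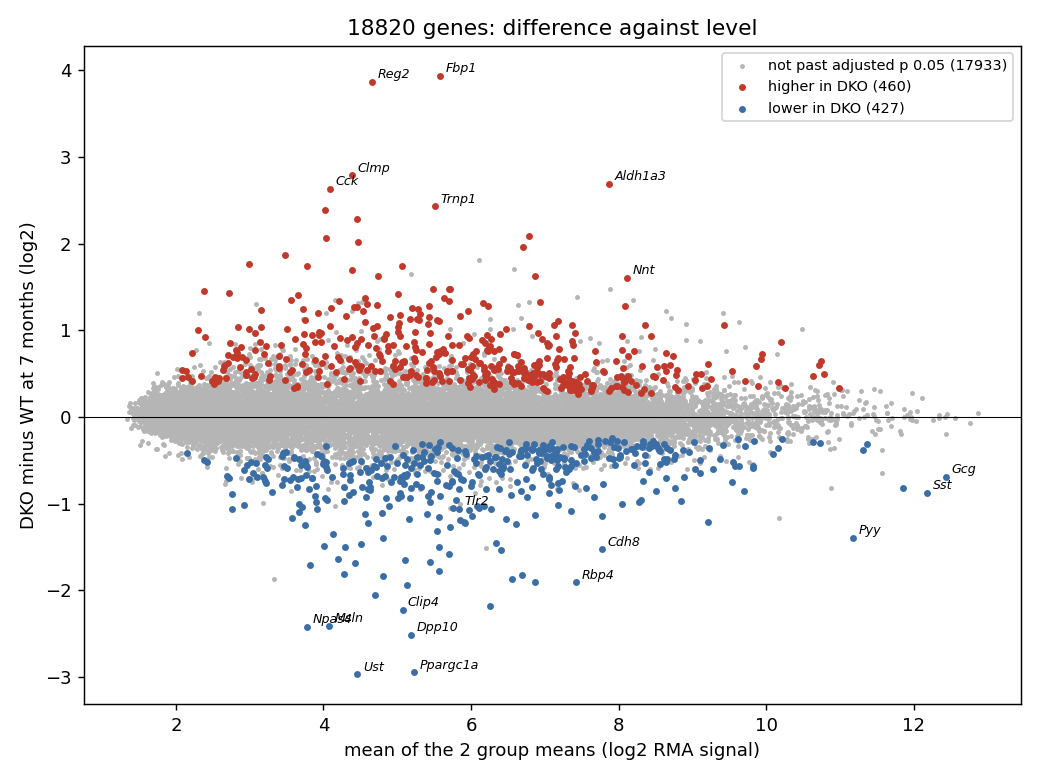
Difference between genotypes at 7 months (DKO minus WT, log2) against the mean of the 2 group means (log2 RMA signal), 1 point per gene, with genes past the adjusted p of 0.05 in red (460 higher) and blue (427 lower). Fbp1 and Reg2 lie highest, at 3.94 and 3.87, and Ust and Ppargc1a lowest, at -2.97 and -2.95.

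The 2 leading rises were Fbp1 and Reg2. Fbp1 encodes fructose-1,6-bisphosphatase, an enzyme of gluconeogenesis that opposes glycolysis. It was 3.99, 3.36, 3.28 and 3.80 in WT and 7.75, 7.58, 7.50 and 7.34 in DKO, with the genotypes far apart and little spread within either. It rose by 3.94 ± 0.16 (15.3-fold, limma adjusted p = 6.04e-09). Reg2 encodes a secreted regenerating protein made by exocrine and endocrine cells of the pancreas. It was 2.48, 3.56, 2.78 and 2.10 in WT and 6.48, 7.20, 6.70 and 6.01 in DKO, so the lowest DKO array was above the highest WT array. It rose by 3.87 ± 0.39 (limma adjusted p = 4.05e-05).

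Clmp, a cell adhesion protein of tight junctions, was 2.68, 3.37, 3.02 and 2.92 in WT and 5.87, 4.56, 6.58 and 6.14 in DKO. Aldh1a3, a retinaldehyde dehydrogenase that marks dedifferentiated beta cells in diabetic mice, was 6.43, 6.31, 6.43 and 6.95 in WT and 9.59, 8.47, 9.71 and 9.12 in DKO. For both genes DKO replicate 2 was the DKO array nearest to WT, and it still lay above all WT arrays. Clmp rose by 2.79 ± 0.32 (limma adjusted p = 0.000124) and Aldh1a3 by 2.69 ± 0.27 (adjusted p = 3.9e-05). Cck, the gene of the peptide cholecystokinin, was 2.68, 2.55, 2.91 and 2.95 in WT, and 6.54, 2.96, 6.01 and 6.11 in DKO. In DKO replicate 2 Cck was thus at the WT level, and its rise of 2.63 ± 0.54 (limma adjusted p = 0.0119) averaged over that split. Leaving that array out gave a rise of 3.45, and in the fit of the 8 arrays alone Cck did not pass.

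The falls were led by Ust, a sulfotransferase that modifies chondroitin and dermatan sulfate. It was 6.14, 5.62, 6.05 and 5.97 in WT and 3.19, 2.92, 2.59 and 3.20 in DKO. Ppargc1a, the coactivator PGC-1alpha of mitochondrial biogenesis and fat oxidation, was 6.79, 6.84, 6.69 and 6.48 in WT and 3.47, 4.66, 2.99 and 3.88 in DKO. Both genes left a gap of more than a log2 unit between the genotypes. Ust fell by 2.97 ± 0.14 (limma adjusted p = 1.4e-08) and Ppargc1a by 2.95 ± 0.25 (adjusted p = 6.87e-06). Dpp10, a partner subunit of Kv4 potassium channels, was 6.71, 6.48, 6.10 and 6.49 in WT and 3.78, 4.46, 3.52 and 3.98 in DKO. Another Dpp10 probe set, dim at a mean of 2.71, differed by only -0.04 (limma unadjusted p = 0.763). Npas4, a transcription factor induced by calcium entry, was 5.23, 5.50, 4.65 and 4.59 in WT and 2.79, 2.25, 2.82 and 2.42 in DKO. Msln, the mesothelial surface protein mesothelin, was 4.69, 5.48, 5.59 and 5.39 in WT and 2.46, 3.33, 2.72 and 2.99 in DKO. These genes fell by 2.51 ± 0.18, 2.42 ± 0.28 and 2.41 ± 0.24, with no overlap between genotypes.

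**Figure D2:**
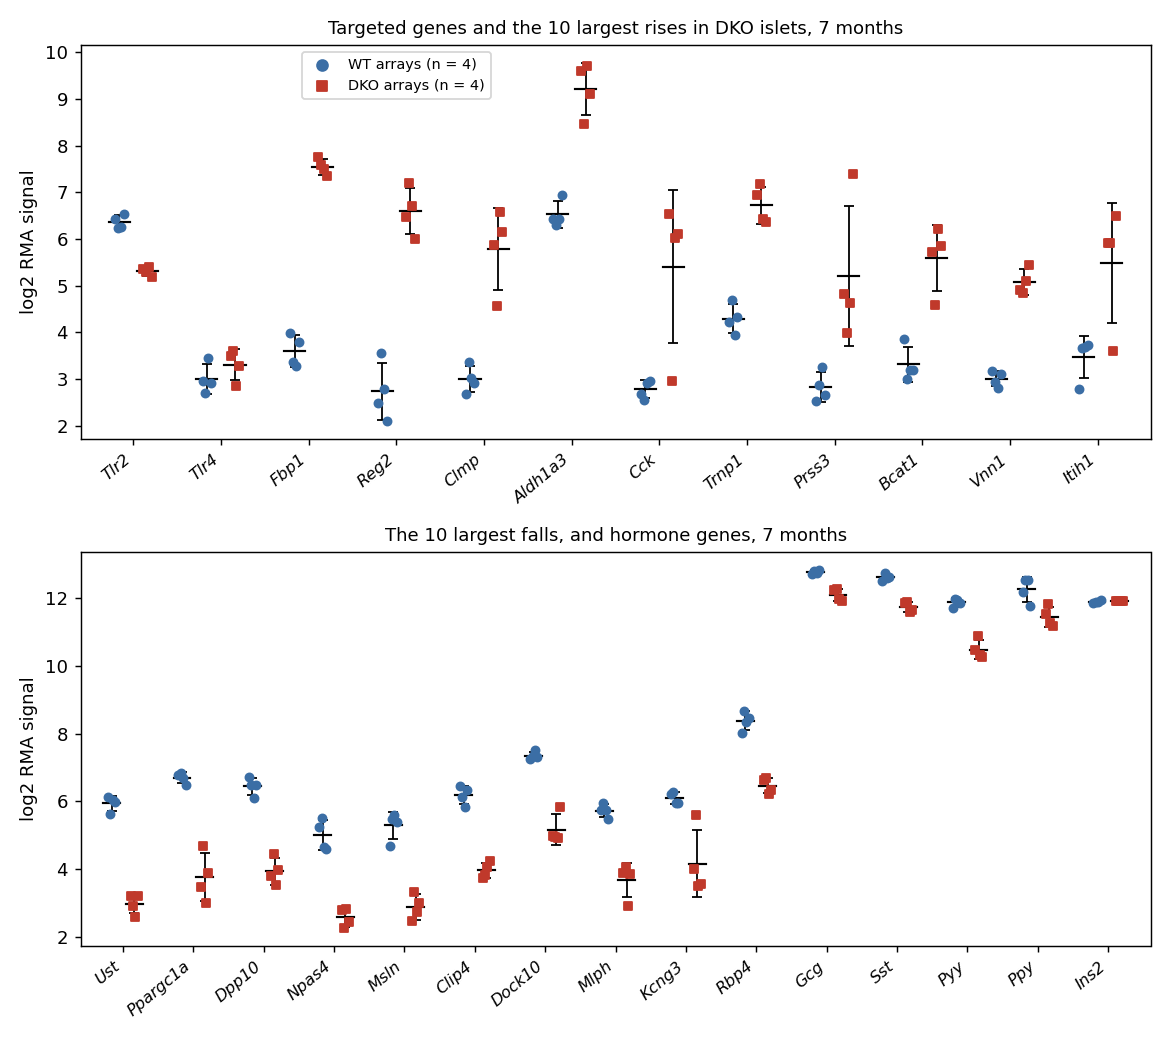
Log2 RMA signal in each 7-month array for the targeted genes, the 10 largest rises, the 10 largest falls and 5 hormone genes, with WT as blue circles and DKO as red squares. Bars are the mean and SD of 4 arrays. Among the rises the genotypes separate except for Itih1, and for Cck the lowest DKO array (2.96) touches the highest WT array (2.95). For the 10 largest falls every DKO array lies below every WT array.

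The remaining rises of the leading 20 spanned several functions. Enzymes were Bcat1, the cytosolic branched-chain aminotransferase (2.29 ± 0.29), Vnn1, a pantetheinase (2.07 ± 0.13), and Fbp2, the muscle isoform of fructose bisphosphatase (1.70 ± 0.17). Nnt, the mitochondrial transhydrogenase that makes NADPH, was 7.35, 7.23, 7.32 and 7.34 in WT and 9.04, 8.76, 8.95 and 8.93 in DKO, a rise of 1.61 ± 0.09 (limma adjusted p = 1.96e-07). Another Nnt probe set, dimmer at a mean of 4.30, differed by only 0.19 (limma unadjusted p = 0.257). Nnt is known for a deletion carried by the C57BL/6J substrain, and the labels name the strain of either genotype only as C57BL/6. The substrain of these mice was not tested. Secreted or matrix proteins were Dcn, the proteoglycan decorin (1.96 ± 0.30), C1qtnf1 (1.63 ± 0.27), Reg3d (1.74 ± 0.42) and Itih1, a hyaluronan-binding inhibitor subunit (2.01 ± 0.45). Prss3, a trypsinogen, rose by 2.38 ± 0.58 and was 7.39 in DKO replicate 4 against 3.99 to 4.82 in the other DKO arrays, and without that array it rose by 1.66. The others were Trnp1, a nuclear regulator of progenitor division (2.43 ± 0.18), Klhl33 (1.87 ± 0.15), Lypd10 (1.77 ± 0.16), Fam107a (1.75 ± 0.30), the chloride channel gene Ttyh1 (1.63 ± 0.26) and the ubiquitin ligase gene Pdzrn3 (1.48 ± 0.11). Itih1 lost its call without WT replicate 1, DKO replicate 1 or DKO replicate 4 (limma adjusted p 0.053 to 0.066), and rose by 2.64 without DKO replicate 3, the DKO array at the WT level (3.59). Prss3 lost it without any 1 WT array (adjusted p 0.0506 to 0.0841).

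The remaining falls included Clip4, a microtubule-binding protein (-2.23 ± 0.15), Dock10 (-2.18 ± 0.17), and Mlph, the Rab27 effector melanophilin (-2.05 ± 0.22). Ndufs5, a subunit of respiratory complex I, was 7.89, 7.78, 7.79 and 7.82 in WT and 5.84, 5.52, 6.01 and 6.28 in DKO, a fall of 1.90 ± 0.13. The stress-inducible Gadd45b fell by 1.87 ± 0.23, the protease gene Rhbdl2 by 1.81 ± 0.19, Nnat, the imprinted ER protein neuronatin, by 1.78 ± 0.23 and Ndst4, a heparan sulfate sulfotransferase, by 1.71 ± 0.19. Rec8, a meiotic cohesin, fell by 1.67 ± 0.18 and Apoa2, an apolipoprotein, by 1.65 ± 0.16. Zim1, an imprinted zinc finger gene, fell by 1.83 ± 0.49 on arrays that overlapped (7.67, 7.46, 7.89 and 7.41 in WT, 6.37, 7.50, 5.21 and 4.03 in DKO). Its call was lost without any 1 array other than DKO replicate 2 (limma adjusted p 0.0524 to 0.135), and without DKO replicate 4 its difference was -1.25.

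To set these leaders among their pathways, 50 gene lists with 827 measured genes were examined. Of these genes 72 rose and 52 fell. The lists were chosen with earlier results in view and hold many of the leading genes. For that reason neither this count nor the share of any list is a test against the 4.71% of all genes that passed. The 4.71% is given for scale only. The median difference over all 18820 genes was 0.01, beside which each list's median is read.

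Hormone genes of the non-beta endocrine cells were lower. Gcg (glucagon) was 12.72, 12.81, 12.73 and 12.84 in WT and 12.23, 12.26, 11.96 and 11.91 in DKO. Sst (somatostatin) was 12.52, 12.74, 12.60 and 12.63 in WT and 11.85, 11.89, 11.58 and 11.65 in DKO. Pyy (peptide YY) was 11.71, 11.99, 11.95 and 11.85 in WT and 10.48, 10.87, 10.31 and 10.25 in DKO. All 3 genes separated the genotypes in every array. They fell by 0.69 ± 0.09 (limma adjusted p = 0.000374), 0.88 ± 0.08 (adjusted p = 2.35e-05) and 1.40 ± 0.12 (adjusted p = 6.27e-06). Ppy (pancreatic polypeptide) fell by 0.82 ± 0.17, with WT at 12.18, 12.55, 12.54 and 11.77 and DKO at 11.53, 11.82, 11.27 and 11.16. Ghrl (ghrelin) fell by 1.40 ± 0.34 and lost its call without any 1 array other than WT replicate 1 or DKO replicate 2 (limma adjusted p 0.0568 to 0.0983). Ins2 was 11.87 to 11.94 in WT and 11.91 in each DKO array (0.02 ± 0.07, adjusted p = 0.917), and whether its probe set can show a change at that signal was not tested. In bulk islet RNA, fewer cells of a type and less RNA per cell cannot be told apart.

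The bases before the transcription start sites of 3 of these hormone genes and of 2 rising secreted genes are shown to compare their core promoter letters (RefSeq, GRCm38.p6, 5' to 3' in the gene's direction). Capitals mark TATAAA, the TATA box, or TGACGTCA, the palindrome bound by CREB-family factors, each searched on both strands.
Gcg (chr2:62483654-62483903, minus strand): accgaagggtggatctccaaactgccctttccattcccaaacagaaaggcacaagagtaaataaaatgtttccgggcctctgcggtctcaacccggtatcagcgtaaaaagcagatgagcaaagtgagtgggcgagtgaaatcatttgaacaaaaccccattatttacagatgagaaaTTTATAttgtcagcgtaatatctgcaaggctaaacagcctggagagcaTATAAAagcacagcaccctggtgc
Sst (chr16:23890845-23891094, minus strand): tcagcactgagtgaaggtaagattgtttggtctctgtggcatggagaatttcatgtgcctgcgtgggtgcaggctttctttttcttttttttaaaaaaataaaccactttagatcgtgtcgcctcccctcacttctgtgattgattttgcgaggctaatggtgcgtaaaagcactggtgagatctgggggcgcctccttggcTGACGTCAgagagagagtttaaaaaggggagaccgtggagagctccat
Ppy (chr11:102101320-102101569, minus strand): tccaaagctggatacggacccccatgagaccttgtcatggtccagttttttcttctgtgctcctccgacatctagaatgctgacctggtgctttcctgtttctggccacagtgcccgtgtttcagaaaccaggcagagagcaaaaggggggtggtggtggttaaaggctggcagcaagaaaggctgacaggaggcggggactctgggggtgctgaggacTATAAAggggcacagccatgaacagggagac
Reg2 (chr6:78404905-78405154, plus strand): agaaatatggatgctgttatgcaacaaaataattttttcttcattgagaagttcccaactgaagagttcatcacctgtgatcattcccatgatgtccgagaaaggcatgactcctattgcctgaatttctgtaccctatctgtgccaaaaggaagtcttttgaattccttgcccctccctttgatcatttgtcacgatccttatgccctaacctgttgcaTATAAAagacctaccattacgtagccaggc
Cartpt (chr13:99900684-99900933, minus strand): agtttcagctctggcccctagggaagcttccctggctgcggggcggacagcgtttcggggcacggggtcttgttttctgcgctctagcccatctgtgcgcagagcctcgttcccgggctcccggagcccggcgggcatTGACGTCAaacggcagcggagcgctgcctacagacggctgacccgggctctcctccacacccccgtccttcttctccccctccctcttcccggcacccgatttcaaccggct
Counting back from the start site, TATAAA began at -24 in Gcg, with a copy on the other strand at -72, at -31 in Ppy and at -30 in Reg2. TGACGTCA began at -48 in Sst, which fell, and at -112 in Cartpt, which rose. Pyy and Fbp1 held neither run in their windows. Over all 32851 windows of this length, 12.37% held TATAAA and 1.55% held TGACGTCA. Of 451 windows of genes that rose 12.64% and 0.67% held them, and of 484 windows of genes that fell 9.3% and 2.89%. These are letter matches, not measured binding sites.

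In the alpha cell list 3 of 6 measured genes fell, and the list median was -0.41. Beside Gcg, the transcription factor genes Irx2 (5.07, 5.54, 5.18 and 5.05 in WT, 4.27, 3.91, 3.73 and 4.04 in DKO) and Irx1 fell, by 1.22 ± 0.13 and 0.71 ± 0.15. Ttr, transthyretin, which alpha cells make at high levels, was at 0.22 ± 0.16 (limma adjusted p = 0.517). Without DKO replicate 2 Ttr was at 0.42 and passed (adjusted p = 0.0144). Of 6 delta cell genes 2 fell, Sst and Rbp4, the retinol-binding protein, which was 8.0, 8.67, 8.35 and 8.47 in WT and 6.62, 6.70, 6.21 and 6.33 in DKO. The ghrelin receptor gene Ghsr was at -0.43 ± 0.15 and the leptin receptor gene Lepr at 0.56 ± 0.17, neither past the threshold. Lepr passed without WT replicate 1 (adjusted p = 0.0181) or DKO replicate 4 (adjusted p = 0.0335). All 3 genes of the PP and epsilon cell list fell, against 1 in the fit of the 8 arrays alone.

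Beta cell genes gave more calls without DKO replicate 2, as did all genes tested (1681 against 887). Of 17 beta cell transcription factor genes 0 passed by limma (5 had an unadjusted p under 0.05), with a median of -0.13 and 3 of 17 above zero. Isl1, an islet developmental factor, was 9.73, 9.75, 9.43 and 9.46 in WT and 9.22, 9.55, 8.94 and 8.87 in DKO. In Mlxipl, the glucose-sensing factor ChREBP, WT arrays were at 9.22 to 9.43 and DKO at 9.02, 9.39, 8.70 and 8.21. In both genes DKO replicate 2 lay within the WT range and the other DKO arrays below it. Without DKO replicate 2, 5 of 17 fell, among them Isl1 (-0.58), Mlxipl (-0.72), Foxa2 (-0.37) and St18 (-0.38). Of 21 genes of beta cell maturity and secretion 2 fell, Nnat and Cacna1c, an L-type calcium channel subunit (-0.34 ± 0.09), and 19 did not pass. Slc2a2, the glucose transporter GLUT2, was 11.95, 12.01, 11.84 and 11.74 in WT and 11.43, 11.88, 10.84 and 10.82 in DKO (-0.64 ± 0.18, limma adjusted p = 0.0568). Without DKO replicate 2 Slc2a2 was at -0.85 (adjusted p = 0.00153), and 7 of the 21 genes fell and 1 rose, Chgb, the granule protein chromogranin B. Without DKO replicate 4 or WT replicate 4, 1 fell. Cacna1c lost its call without any 1 array other than DKO replicate 2 (limma adjusted p 0.0933 to 0.145).

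Genes that mark dedifferentiated or progenitor-like beta cells rose in 3 of 10 cases: Aldh1a3, the tetraspanin gene Cd81 (9.52, 9.91, 9.98 and 9.69 in WT, 10.54, 10.34, 10.97 and 10.70 in DKO, 0.86 ± 0.13) and Vim, vimentin (0.83 ± 0.15). Vim is also a stromal gene and moved with the stromal lists below. Of 18 disallowed genes, which beta cells normally keep silent, 2 rose, Igfbp4 (1.12 ± 0.22) and Pdgfra (0.83 ± 0.13), both also made by stromal cells. In retinoid handling, Aldh1a3 and the carotene oxygenase gene Bco1 (1.02 ± 0.13) rose, while Rbp4 and the receptor gene Rara (-0.83 ± 0.13) fell, and 17 of 21 did not pass.

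Neuropeptide genes moved both ways, with 4 of 25 higher and 3 lower. Vgf, a granin of dense-core vesicles, was 4.15, 3.90, 4.56 and 4.60 in WT and 5.87, 5.11, 6.00 and 5.92 in DKO (1.42 ± 0.19). Cartpt, the peptide CART, was 4.30, 4.12, 4.63 and 4.73 in WT and 6.07, 4.78, 5.95 and 5.68 in DKO (1.17 ± 0.22). As for Cck, DKO replicate 2 was the lowest DKO array in both. Galr1, a galanin receptor, rose by 0.76 ± 0.08 with all DKO arrays at 8.50 to 8.68 and all WT arrays at 7.75 to 7.89. Vip, vasoactive intestinal peptide, fell by 0.96 ± 0.18. Among receptors for fatty acids and hormones, Ffar2, which senses short-chain fatty acids, rose (6.79, 6.78, 7.00 and 7.12 in WT, 8.19, 7.58, 7.97 and 7.80 in DKO, 0.96 ± 0.13). Ffar4, which senses long-chain fatty acids, fell (4.12, 4.18, 4.07 and 4.23 in WT, 2.96, 2.92, 3.15 and 2.90 in DKO, -1.17 ± 0.13). In that list of 20 genes 2 rose and 2 fell. The second fall was the orphan receptor gene Gpr158 (-0.28 ± 0.07), which passed in 0 of the 8 fits that left out 1 array (limma adjusted p 0.0596 to 0.128). Thus 1 gene fell without DKO replicate 4 or WT replicate 4, while 3 rose and 4 fell without DKO replicate 2.

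Potassium channel genes were lower where they passed: 4 of 20 fell and 0 rose, with a list median of -0.21. Kcng3, a silent Kv subunit, was 6.22, 6.28, 5.93 and 5.94 in WT and 3.99, 5.61, 3.49 and 3.55 in DKO, a fall of 1.94 ± 0.34 with DKO replicate 2 nearest to WT. Kcnn2, a calcium-activated SK channel, fell by 1.64 ± 0.13, and Kcnip4, a second Kv4 partner beside Dpp10, by 0.75 ± 0.11. Kcnh8, an Elk-type channel among the leading falls and outside the list, fell by 1.83 ± 0.17. Of 18 calcium and sodium channel genes 3 fell by limma: Cacna1c, the auxiliary subunit gene Cacna2d3 (-0.49 ± 0.12) and Atp2a2, the ER calcium pump SERCA2 (-0.31 ± 0.08). Without WT replicate 4 that count was 0 (11 of the 18 had an unadjusted p under 0.05 over all arrays), without DKO replicate 4 it was 1, and without DKO replicate 2 it was 6, with 2 rises. Cacna2d3 passed in 3 and Atp2a2 in 1 of the 8 fits that left out 1 array. In exocytosis, Mlph and Rims2, an active-zone scaffold (-0.35 ± 0.08), fell and 21 of 23 genes did not pass. Rims2 lost its call without WT replicate 1, WT replicate 2 or DKO replicate 4 (limma adjusted p 0.0589 to 0.0607).

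**Figure D3:**
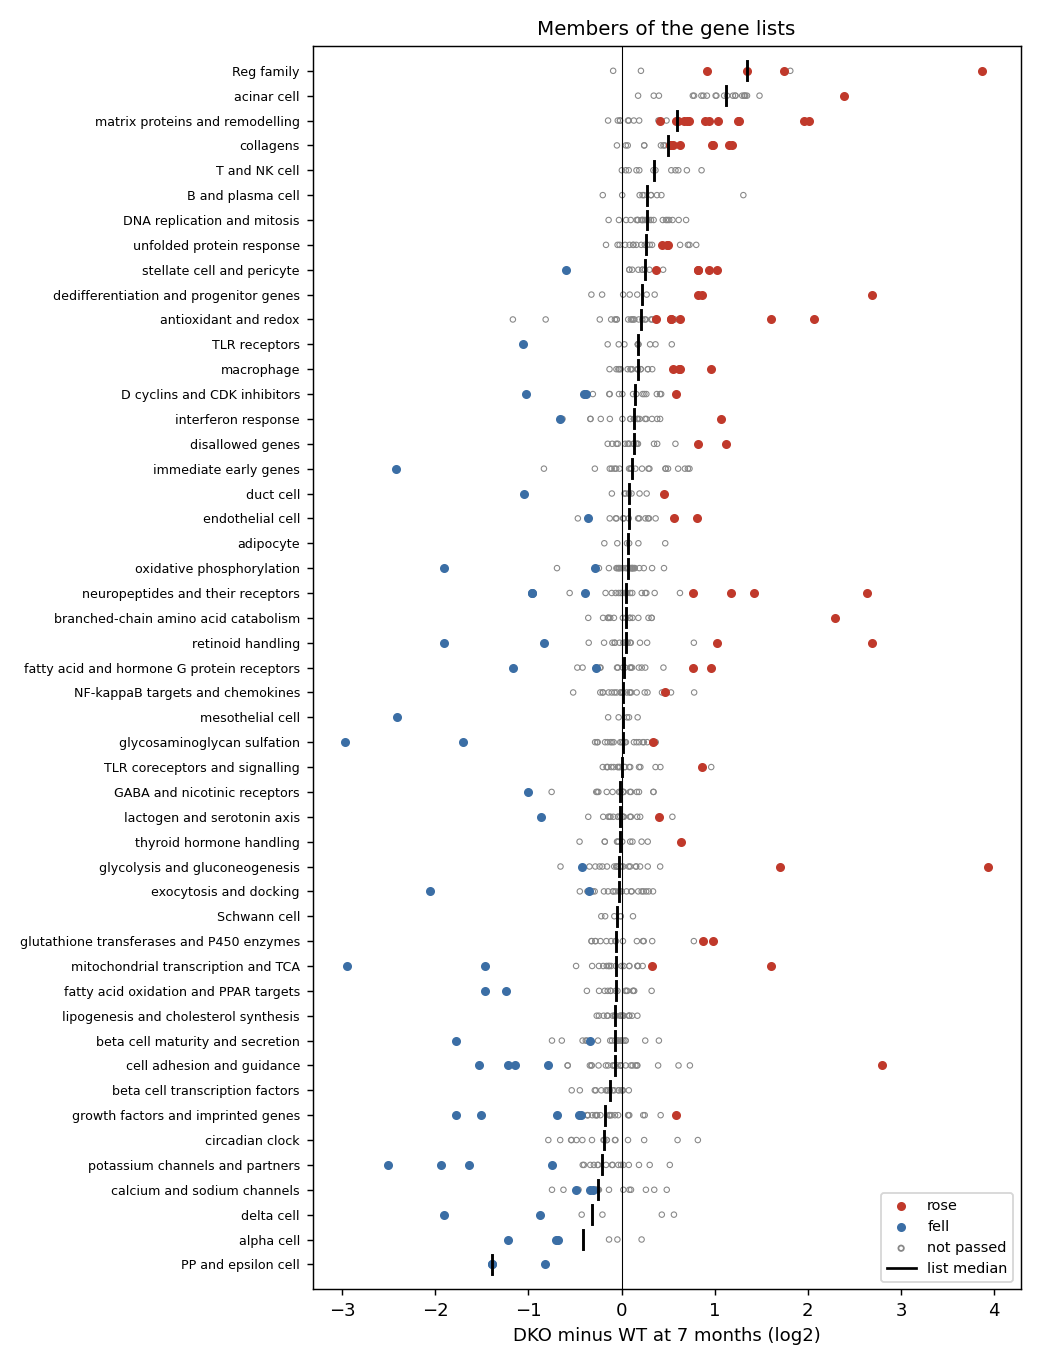
DKO minus WT difference at 7 months (log2) for every measured member of each gene list with at least 3 measured genes, ordered by list median (black bar). Red points rose, blue points fell and open points did not pass. The Reg family has the highest median (1.35) and the PP and epsilon cell list the lowest (-1.40).

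In metabolism a few enzymes moved far while most genes of their pathways did not pass. Of 24 genes of glycolysis and gluconeogenesis, Fbp1 and Fbp2 rose, the phosphofructokinase gene Pfkp fell by 0.43 ± 0.09 and 21 did not pass, with a list median of -0.02. In the fit lacking DKO replicate 2, 3 rose and 3 fell. Of 17 genes of fatty acid oxidation and PPAR targets 2 fell. Pdk4, the kinase that turns off pyruvate dehydrogenase, was 5.11, 5.58, 4.94 and 5.33 in WT and 3.80, 3.89, 3.79 and 3.65 in DKO (-1.46 ± 0.12). Acadl, long-chain acyl-CoA dehydrogenase, was 7.30, 7.33, 7.25 and 7.03 in WT and 5.82, 5.96, 6.56 and 5.62 in DKO (-1.24 ± 0.15). Of 28 oxidative phosphorylation genes Ndufs5 and Sdhc, a complex II subunit (-0.29 ± 0.08), fell, and the list median was 0.07. Sdhc passed only without WT replicate 2 among the fits that left out 1 array (otherwise limma adjusted p 0.0616 to 0.129). In lipogenesis and cholesterol synthesis 0 of 21 genes passed by limma (1 at an unadjusted p under 0.05), with differences of -0.27 to 0.17, and without DKO replicate 2, 2 fell. Of 17 genes of branched-chain amino acid catabolism Bcat1 rose. With DKO replicate 2 left out, 3 rose.

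Antioxidant and redox genes rose in 6 of 26 cases and fell in 0, with a list median of 0.20. Beside Nnt and Vnn1 they included Gpx8, an ER glutathione peroxidase (4.63, 4.43, 4.40 and 4.27 in WT, 5.00, 4.95, 4.89 and 5.01 in DKO, 0.53 ± 0.11), and Prdx4, an ER peroxiredoxin (0.62 ± 0.15). When DKO replicate 2 was left out, 8 rose and 2 fell, and without DKO replicate 4, 3 rose. Prdx4 lost its call without any 1 array other than DKO replicate 2 or WT replicate 3 (limma adjusted p 0.0556 to 0.0852). In the unfolded protein response 3 of 20 genes rose: Sel1l and Edem1 of ER-associated degradation and the co-chaperone gene Dnajc3, by 0.44 ± 0.10, 0.49 ± 0.12 and 0.50 ± 0.13. They passed in 2, 4 and 2 of the 8 fits that left out 1 array. The mean of this list was 0.31, 0.41 and 0.38 in DKO replicates 1, 3 and 4 and -0.06 in DKO replicate 2, beside -0.13 to 0.02 in WT. In the fit lacking DKO replicate 2, 9 of 20 rose, and without DKO replicate 4, 0 did by limma (8 had an unadjusted p under 0.05 over all arrays).

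Growth and imprinted genes that passed were mostly lower. In the list of growth factors and imprinted genes 5 of 28 fell and 1 rose, with a median of -0.18. Peg10, a paternally expressed gene of retroviral origin, was 4.83, 5.62, 4.67 and 5.08 in WT and 3.44, 3.52, 3.86 and 3.37 in DKO (-1.50 ± 0.17). Nnat fell as given above, and Plagl1, an imprinted zinc finger factor, fell by 0.70 ± 0.16. Plagl1 lost its call without WT replicate 2, WT replicate 3 or DKO replicate 3 (limma adjusted p 0.0652 to 0.0681). Ccn2, connective tissue growth factor, rose by 0.59 ± 0.11. With DKO replicate 2 left out, 9 of the 28 fell and 1 rose. Without DKO replicate 4, 3 fell, as with the acinar score in the model, and 2 fell in the fit of the 8 arrays alone.

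DNA replication and mitosis genes mostly lay above zero but did not pass, and the D cyclin and CDK inhibitor list moved both ways. Of 23 genes of DNA replication and mitosis 0 passed by limma (2 at an unadjusted p under 0.05), with a median of 0.27 and 21 of 23 above zero. Mki67, the proliferation marker, was 3.38, 3.65, 5.30 and 5.19 in WT and 5.57, 3.83, 5.02 and 5.13 in DKO. Low values thus occurred in both genotypes, and Mki67 differed by 0.51 ± 0.55 (limma adjusted p = 0.682). DKO replicate 2 had the lowest list mean of the DKO arrays (-0.44), and when it was left out 3 of the 23 rose. Ccnd2, the D-type cyclin of beta cells, was 11.49, 11.35, 11.57 and 11.63 in WT and 10.86, 11.12, 11.13 and 11.39 in DKO (-0.39 ± 0.10, adjusted p = 0.0464). Its call held without WT replicate 2 or DKO replicate 4 and was lost without each of the other 6 arrays (adjusted p 0.0533 to 0.116). Myc fell by 1.02 ± 0.23, a call lost without DKO replicate 1 (limma adjusted p = 0.0532) or WT replicate 2 (adjusted p = 0.0607). The inhibitor gene Cdkn2b (p15) fell by 0.41 ± 0.10 and Cdkn2c (p18) rose by 0.58 ± 0.15. Cdkn2b and Cdkn2c each passed in 1 of the 8 fits that left out 1 array, and without WT replicate 4 only 1 gene of this list of 18 passed.

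Many matrix genes rose, in counts that depended on the arrays used. Of 16 collagen genes 8 rose and 0 fell (median 0.49), and of 24 other matrix genes 13 rose and 0 fell (median 0.60). Col3a1, a fibrillar collagen, was 4.54, 4.58, 4.93 and 4.80 in WT and 5.56, 5.56, 5.96 and 6.51 in DKO (1.18 ± 0.18). Col14a1, which binds collagen fibrils, was 4.51, 4.57, 4.21 and 3.98 in WT and 5.24, 5.21, 5.61 and 5.85 in DKO (1.16 ± 0.16). Dcn was 5.74, 6.46, 5.92 and 4.79 in WT and 7.07, 7.66, 7.86 and 8.17 in DKO. In these genes DKO replicate 4 was the highest array, and all DKO arrays lay above all WT arrays. Col1a1 rose by 0.97 ± 0.18, the laminin genes Lama2 and Lamb1 by 0.90 ± 0.14 and 0.61 ± 0.11, the collagenase gene Mmp14 by 0.67 ± 0.14, and Col18a1, a basement membrane collagen, by 0.52 ± 0.09. Of 15 stellate cell and pericyte genes 5 rose, among them Thy1 (1.02 ± 0.21) and Pdgfra, and Anpep, an aminopeptidase that other islet cells also make, fell by 0.59 ± 0.10. Of the 24 matrix genes, 7 rose without DKO replicate 4, 6 without WT replicate 4, 3 with the acinar score in the model and 3 in a fit of the 8 arrays alone. Of the 16 collagen genes 5 rose in that fit. Of the 15 stellate cell and pericyte genes, 3 rose without DKO replicate 4, 3 without WT replicate 4, 2 with the acinar score and 3 in the fit of the 8 arrays alone. Mmp14 lost its call without WT replicate 1 (limma adjusted p = 0.0541). The part of the lymphocyte signals of DKO replicate 4 in these lists was not tested beyond leaving that array out.

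Of 21 macrophage genes 4 rose: the lysozyme gene Lyz2 (5.90, 5.83, 5.96 and 5.98 in WT, 6.55, 6.52, 6.66 and 7.76 in DKO, 0.96 ± 0.21), the Fc receptor gene Fcgr1 (0.62 ± 0.12), Mrc1, a mannose receptor (0.62 ± 0.15), and Itgam, the integrin CD11b (0.55 ± 0.15). DKO replicate 4, the array with lymphocyte RNA, was highest in each, and 2 of the 21 rose without it. Mrc1 and Itgam each passed in 3 of the 8 fits that left out 1 array, and 1 of the 21 rose with the acinar score or in the fit of the 8 arrays alone. By limma 0 of 12 T or NK cell genes passed (0 at an unadjusted p under 0.05), and 0 of 10 genes of B or plasma cells (1 at that level). Of 17 endothelial genes the receptor gene Tek (0.57 ± 0.09) and Vwf, von Willebrand factor (0.81 ± 0.14), rose, and the sialomucin gene Emcn fell by 0.36 ± 0.09. Emcn lost its call without any 1 array other than WT replicate 1 or DKO replicate 2 (limma adjusted p 0.0708 to 0.123).

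In the receptor pathway lists 8.33% (receptors), 5.0% (coreceptors and signalling) and 4.35% (NF-kappaB targets) of genes passed, beside 4.71% of all genes. Of 20 interferon response genes 2 passed. Each share rests on 1 or 2 genes, and that of the receptors on the targeted gene Tlr2 alone. Such counts cannot tell whether the pathway changed more or less than other genes. Of 12 Toll-like receptor genes Tlr2 fell and the other 11 did not pass. Tlr5, the flagellin receptor, was at 0.54 ± 0.21 (limma adjusted p = 0.174), and without DKO replicate 2 it was at 0.77 and passed. Of 20 coreceptor and signalling genes 1 rose, Lbp, the lipopolysaccharide-binding protein (4.06, 4.10, 3.64 and 4.30 in WT, 4.75, 4.53, 4.89 and 5.37 in DKO, 0.86 ± 0.17). The scavenger receptor gene Cd36 was at 0.96 ± 0.30 and did not pass, with DKO replicate 2 at 5.40 against 6.73 to 7.21 in the other DKO arrays, and it passed without that array. Of 23 NF-kappaB targets and chemokine genes 1 rose, the dim chemokine gene Cxcl2 (0.46 ± 0.08). Of 20 interferon response genes Usp18, the protease that removes ISG15, rose (6.71, 6.85, 6.78 and 6.99 in WT, 7.89, 7.61, 7.99 and 8.12 in DKO, 1.07 ± 0.11), and the RNA sensor gene Ifih1 fell by 0.66 ± 0.09. In the fit lacking DKO replicate 2, 4 interferon response genes fell and 1 rose.

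Acinar genes varied widely among WT arrays, and WT replicate 2 had a higher acinar mean than any DKO array. Of 22 acinar genes 1 rose, Prss3 (4.55%, against 4.71% of all genes). All 22 differences were above zero, with a median of 1.12, or 0.41 without WT replicate 4. Gp2, a zymogen granule protein, was 3.25, 5.36, 3.60 and 3.04 in WT and 5.17, 5.54, 4.72 and 5.08 in DKO (1.31 ± 0.48, limma adjusted p = 0.15). Without WT replicate 2, the WT array with the highest acinar mean, Gp2 was at 1.83 and passed (adjusted p = 0.0242). Of 7 Reg family genes 4 rose: Reg2, Reg3a (0.92 ± 0.17), Reg3b (2.72, 3.31, 2.70 and 2.81 in WT, 3.83, 5.53, 3.94 and 3.64 in DKO, 1.35 ± 0.31) and Reg3d. The mean of the Reg family was -0.97, -0.06, -0.69 and -1.29 in WT and 0.57, 1.13, 0.52 and 0.37 in DKO, with all DKO arrays above all WT arrays. The acinar mean of the same arrays was -1.14, 0.73, -0.38 and -2.35 in WT and 0.14, 0.36, 0.01 and 0.63 in DKO. Within WT both means had the same order of arrays. Within DKO, where acinar means spanned only 0.01 to 0.63, replicate 4 had the highest acinar mean and the lowest Reg mean. Orders of 4 arrays are no test of a link between these lists. The median DKO minus WT difference at 5 weeks was 1.14 for the acinar list and 1.06 for the Reg family, beside 1.12 and 1.35 at 7 months. With the acinar score, the mean of the 22 acinar genes, in the model 2 of 7 Reg genes rose. That model says nothing about the acinar genes themselves, which make up the score. Reg3b lost its call without WT replicates 1, 3 or 4 (limma adjusted p 0.054 to 0.0693) and Reg3d without those or DKO replicates 1 or 3 (adjusted p 0.0518 to 0.0896). Of 10 duct genes Krt18 rose by 0.46 ± 0.08 and the tetraspanin gene Tspan8 fell by 1.05 ± 0.21. Of 6 mesothelial genes Msln fell, while Wt1, Upk1b and Krt19 did not pass (-0.14 ± 0.10, 0.17 ± 0.14 and 0.08 ± 0.11).

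**Figure D4:**
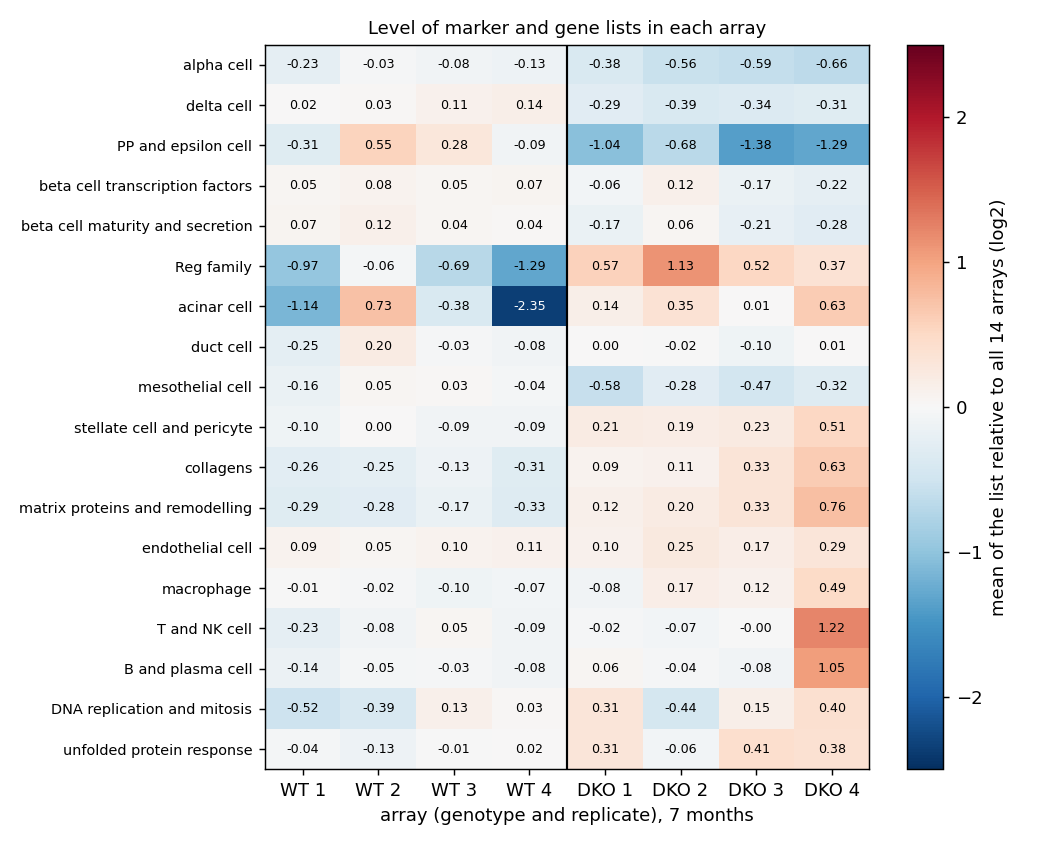
Mean of each gene list in each 7-month array (WT replicates 1 to 4, then DKO replicates 1 to 4), as log2 relative to the mean of all 14 arrays, on a red (higher) to blue (lower) scale. DKO replicate 4 holds the high T and NK cell and B and plasma cell means (1.22 and 1.05), DKO replicate 2 the low unfolded protein response mean among DKO arrays (-0.06), and WT replicate 4 the lowest acinar mean (-2.35).

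Among the other lists, sulfation of glycosaminoglycans had Ust and Ndst4 lower, the sulfatase gene Sulf1 higher (0.34 ± 0.09) and 21 of 24 genes not past the threshold. Sulf1 passed in 1 of the 8 fits that left out 1 array. In cell adhesion and guidance Clmp rose and 4 of 29 genes fell, including the cadherin gene Cdh8 (8.62, 8.57, 8.54 and 8.44 in WT, 6.93, 7.41, 6.74 and 6.97 in DKO, -1.53 ± 0.12), the guidance receptor gene Robo2 (-1.21 ± 0.12) and Cntnap2, a neurexin family protein (-1.14 ± 0.12). With DKO replicate 2 left out, 7 fell and 3 rose. In the serotonin list Ddc, which makes serotonin and dopamine, rose by 0.40 ± 0.08 and the serotonin receptor gene Htr3a fell by 0.86 ± 0.19, a call lost without DKO replicate 1 (limma adjusted p = 0.0504) or WT replicate 2 (adjusted p = 0.0577). Of 17 glutathione transferase and P450 genes the oxysterol hydroxylase gene Cyp39a1 rose by 0.98 ± 0.20 and Cyp1b1 by 0.87 ± 0.22, the latter in 3 of the 8 fits that left out 1 array. A dimmer Cyp1b1 probe set, at a mean of 2.26, differed by 0.245 (limma unadjusted p = 0.0586). Without WT replicate 4, 1 gene of this list of 17 rose. Of 12 thyroid hormone genes Thrsp, a thyroid-responsive regulator of lipogenesis, rose by 0.64 ± 0.12. Of 19 GABA and nicotinic receptor genes Gad1, which makes GABA, fell by 1.00 ± 0.26, a call that held only without DKO replicate 2 among those 8 fits. Of 23 immediate early genes Npas4 fell, and without DKO replicate 2 another 2 rose. Of 17 clock genes 0 passed by limma (8 at an unadjusted p under 0.05), and without DKO replicate 2, 4 fell and 1 rose. Of 6 Schwann cell and 6 adipocyte genes 0 passed by limma (0 and 1 at an unadjusted p under 0.05). Of the 2 red blood cell genes measured, Alas2, of erythroid heme synthesis, rose by 1.38 ± 0.29.

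The same genes were then read in the arrays from 5 weeks on the diet, which share no array with the 7-month comparison, although the model pools the spread of all 14. At 5 weeks 187 of 18820 genes passed (0.994%). Of the 460 genes that rose at 7 months, 351 (76.3%) also had a higher mean in DKO at 5 weeks and 48 passed there. Of the 427 that fell, 346 (81.0%) were lower at 5 weeks and 51 passed. Over all genes tested 58.1% had the same sign at both times. The 99 genes past the threshold at both times were 11.2% of the 7-month calls and 52.9% of the 5-week calls, and none changed direction. Median differences of the genes that rose were 0.60 at 7 months and 0.16 at 5 weeks, and those of the genes that fell were -0.58 and -0.22. The genes were chosen on their 7-month values, so no test is drawn from these medians.

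Some genes differed by similar amounts at both times. Nnt was 1.61 ± 0.09 higher at 7 months and 1.53 higher at 5 weeks, Trnp1 2.43 and 2.37, Ndufs5 -1.90 and -1.94, and Reg2 3.87 and 4.47. For these 4 genes the test of a change in that difference between times did not pass (limma interaction adjusted p of 0.906, 0.972, 0.982 and 0.802).

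For 17 genes the genotype difference itself differed between times (0.0903% of genes, limma interaction, adjusted p under 0.05), and 16 of them were past the threshold at 7 months. Ppargc1a was 6.32, 6.00, 6.30 and 6.30 in WT and 5.97 and 5.62 in DKO at 5 weeks, a difference of -0.43 that became -2.95. Pyy was 12.04 to 12.17 in WT and 12.12 and 12.10 in DKO at 5 weeks, and Sst was 12.85 to 12.91 in WT and 12.78 and 12.85 in DKO. In both hormone genes DKO islets were thus within 0.1 of WT at 5 weeks on average (0.01 and -0.06) and lower at 7 months. Peg10 (0.36 at 5 weeks and -1.50 at 7 months), Rbp4 (-0.18 and -1.91), Pdk4 (-0.19 and -1.46), Ffar4 (0.15 and -1.17), Cdh8 (-0.36 and -1.53), Clip4 (-0.85 and -2.23) and Ust (-1.54 and -2.97) shared that direction. Clmp (-0.45 and 2.79), Anxa1, the phospholipid-binding protein annexin A1 (-0.56 and 1.27), Galr1 (-0.05 and 0.76) and Steap4, a metalloreductase (-0.35 and 0.62), went the other way. Of these genes Anxa1 and Steap4 were chosen after their values were seen. With 1 array of 7 months left out, the count of 17 was 185 without DKO replicate 2, 27 without DKO replicate 1 and 10 without WT replicate 2.

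**Figure D5:**
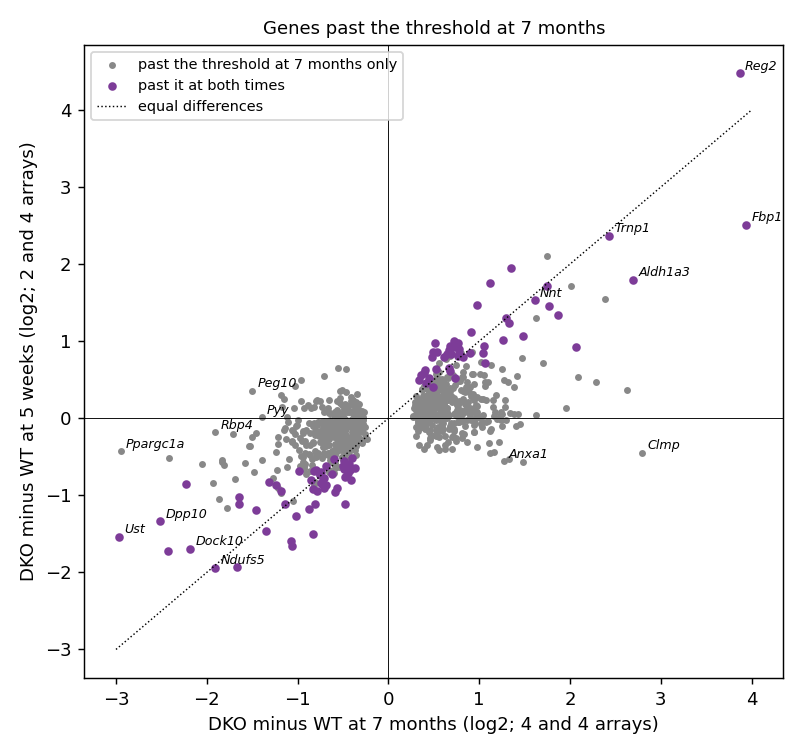
DKO minus WT difference (log2) at 5 weeks against that at 7 months for the 887 genes past the threshold at 7 months, with the 99 also past it at 5 weeks in purple and a dotted line where both are equal. Reg2, Trnp1, Nnt and Ndufs5 lie near the line, and Clmp, Ppargc1a, Pyy and Rbp4 lie at -0.45, -0.43, 0.01 and -0.18 at 5 weeks.

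The genes that flank the targeted loci were counted next. Of the 40 nearest measured genes around Tlr2 on chromosome 3, 6 fell and 0 rose (15.0%, against 4.71% of all genes): Ctso (-0.82 ± 0.20), Tmem131l (-0.44 ± 0.10), Fhdc1 (-0.46 ± 0.10), Sh3d19 (-0.46 ± 0.09), Snord73b (-1.07 ± 0.16) and Dclk2 (-0.65 ± 0.12). All 6 were also lower in DKO at 5 weeks, at -0.87, -0.29, -0.52, -0.42, -1.59 and -0.67. Only Snord73b passed at 5 weeks (limma adjusted p = 0.00083), and the others had adjusted p of 0.0503 to 0.379. Around Tlr4 on chromosome 4, 2 rose, Akna (1.30 ± 0.15) and Tle1 (0.70 ± 0.13), and 2 fell, Zfp618 (-0.46 ± 0.10) and Mpdz (-0.44 ± 0.08), of 40. Akna was higher by 1.30 at 5 weeks too and passed there (limma adjusted p = 0.002), while Tle1, Zfp618 and Mpdz did not (adjusted p 0.451 to 0.793). These neighbours were named for their position after their values were seen.

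Where a gene that passed had further probe sets, they mostly pointed the same way. Of 135 other probe sets of 76 such genes, 123 (91.1%) had the same sign, against 71.2% of those of genes that did not pass. Some genes held many of the 135, and those of Gm26504 all read the same value (-1.74). The 91.1% thus counts repeated entries, and the shares were not compared by a test. Probe sets of 1 gene are read from the same RNA and are not replicates.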

How the data were processed

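RNA of 14 islet samples was labelled with biotin and hybridised to whole-transcript Affymetrix arrays, per the labels' protocols. The authors deposited 1 table of log2 values made with RMA (background correction, quantile normalization and probe summary), per the submitters' processing notes, with no version named in these sources. RMA draws all arrays to 1 distribution, so a shift of all genes cannot be seen. Of 35556 probe sets, 21218 carried a single gene symbol in the platform annotation, 1881 several and 12457 none. Only those with a single symbol were kept. The brightest probe set per gene gave 18820 genes, 18790 with symbols updated by Entrez ID. Ins1 was not analysed here.

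Differences were fitted with limma 3.58.1 in R 4.3.3 (lmFit, 1 mean per group over all 14 arrays, eBayes) and adjusted by Benjamini-Hochberg over all genes, for 3 contrasts: 7 months, 5 weeks and their interaction. The labels describe each sample as from a mouse, and p-values measure the spread between these samples. On simulated data with 18820 genes, the 7-month comparison recovered 70% of 1.5-fold, 92% of 2-fold and 100% of 3- and 4-fold changes. Of the simulated calls 1.63% were false. The simulation drew independent normal noise with the same spread for a gene in every array. It did not hold the unequal arrays seen here, so these rates do not apply to the real calls. Genes named were Tlr2, Tlr4, the 20 largest rises and 20 largest falls past the threshold, up to 4 members of each list by smallest p, and Ins2, Gcg, Sst, Ppy, Pyy, Mki67 and Ccnd2. Symbols that are placeholders or belong to large repeat families were skipped. The comparison, the lists and the members were chosen with earlier results of these data known. Description labels carry a letter that runs with the group, so any batch it stands for and the genotype cannot be told apart. Promoter windows came from RefSeq (GRCm38.p6). Alternatives changed the arrays in the fit, the variance prior, normalization, centring, probe set rule, dim gene filter, replicate and description numbers, acinar score, array weights and minimum fold.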

Additional observations from a re-analysis of the deposited data

Results flagged for a closer look

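In 29 of 412 groups of 4 arrays (7.0%), 1 array lay apart from the others of its genotype for a named gene by Dixon's test, where chance gives about 5%. DKO replicate 2 was that array for 9 genes, Cck at 2.96, C1qtnf1 at 4.60, Vgf at 5.11, Bco1 at 6.79, Bckdhb at 6.32, Sel1l at 9.25, Reg3b at 5.53, Vwf at 4.12 and Upk1b at 2.46. For Cck the other DKO arrays lay at 6.01 to 6.54. DKO replicate 4 was that array for 7 genes, Pdzrn3 at 6.47, Dock10 at 5.83, Lyz2 at 7.76, Cd3g at 5.19, Jchain at 6.25, Cr2 at 3.11 and Cd22 at 3.56, of which Cd3g, Jchain, Cr2 and Cd22 are lymphocyte genes and Lyz2 a myeloid gene. DKO replicate 1 was low for 1 gene, Junb at 4.70. Among WT arrays, replicate 1 lay apart for Itih1 at 2.78, Irak3 at 5.92, Sox9 at 2.94 and Cyp1b1 at 2.40, replicate 2 for Mmp14 at 4.29, Ctrc at 5.29 and Cyp39a1 at 4.46, replicate 3 for Kcnn2 at 5.31, Nkg7 at 2.95 and Thrsp at 5.21, and replicate 4 for Atf3 at 3.99 and Pcna at 7.06.

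The genotype difference at 7 months differed from that at 5 weeks by limma's interaction test for 12 named genes. The change in the difference (7 months minus 5 weeks, log2) was positive for Clmp (3.24) and Galr1 (0.81). It was negative for Ppargc1a (-2.52), Peg10 (-1.86), Rbp4 (-1.73), Ust (-1.43), Pyy (-1.41), Clip4 (-1.38), Ffar4 (-1.32), Pdk4 (-1.27), Cdh8 (-1.17) and Sst (-0.82).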

How the results depend on the processing

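At 7 months 887 genes passed. The total was 585 with the acinar score as a covariate (543 of them among the 887), 488 in a fit of the 8 arrays alone (468 among the 887), 147 with a minimum of 2-fold and 528 to 1681 with 1 array left out. Of the 887, 405 passed in all 8 fits that left out 1 array. At 5 weeks the count of 187 became 44 to 171 with 1 array of that time left out. The interaction count of 17 became 46 with a trended robust prior and 10 to 185 with 1 array of 7 months left out. Interaction counts with a 5-week array left out are not reported here. The split of higher against lower calls was 381 against 527 with arrays centred on the median of the genes, 433 against 482 after quantile normalization again, and 674 against 294 with arrays centred on the median of all probe sets, which was chosen after seeing the data. Dim genes left out gave 489 against 574. With the replicate number as a block, 817 genes passed at 7 months and 121 at 5 weeks. Deviations of same-numbered WT and DKO arrays of 7 months correlated at -0.0059, 0.158, -0.0118 and 0.0465. These few values cannot settle whether the numbers pair the samples. No gene named changed sign while past the threshold in any setting tried. Of 118 named genes that passed, 93 kept their call with the acinar score, 88 in the fit of 8 arrays alone, 107 with the replicate block and 95 to 114 with 1 array left out. Tlr2 stayed between -1.10 and -1.01. Signals below the array medians limit the size of a change that can be read.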
